A study of Mus musculus with 15 samples.

Results

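The genes followed here code for proteins at the entry, the early control points and the end of the route from blood glucose to lactate, and were 10 of 17447 genes in the table of raw counts. They were chosen by name for these roles, as glucose transporters (Slc2a1, Slc2a4), hexokinases (Hk1, Hk2), the muscle form of phosphofructokinase (Pfkm), the enzymes that make and remove its activator (Pfkfb1, Pfkfb2, Pfkfb3) and the subunits of lactate dehydrogenase (Ldha, Ldhb). All 10 were found in the table, and all 10 passed the filter on low counts that left 13021 genes to test.

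Glucose enters heart muscle cells through GLUT1, made from Slc2a1 and present at the surface at all times, and GLUT4, made from Slc2a4 and moved to the surface by insulin or contraction. Hexokinase traps glucose by phosphorylation, and phosphofructokinase commits it to glycolysis, driven by fructose 2,6-bisphosphate, which the bifunctional PFKFB enzymes make and degrade. The adult heart draws most of its energy from fatty acids, and it takes up lactate as a fuel. Its lactate dehydrogenase is rich in the H subunit (Ldhb), while the M subunit (Ldha) prevails in skeletal muscle.

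Heart RNA of male C57BL/6J mice was sequenced 18 weeks after surgery, in 5 groups of 3 libraries. The WTSHAM group was wild type and went through the operations without loss of kidney tissue. The WTCKD group was wild type with chronic kidney disease (CKD) from subtotal nephrectomy and received the vector, and the WTCKD + RNLS group received AAV9-cTnT-RNLS instead. The KOCKD and KOCKD + RNLS groups were rnls-/- mice with the same nephrectomy and received the vector or AAV9-cTnT-RNLS. By the study's methods the mice were young adults at the start, the virus or vector was given by tail vein 2 weeks after the second operation, the cTnT promoter limits expression to cardiomyocytes, and the knockout came from a nuclease cut in exon 4 of the renalase (RNLS) gene. A vector injection is not described for the sham mice, so CKD and vector cannot be told apart between WTCKD and WTSHAM. No knockout sham library was analysed here, and the RNLS gene itself was not analysed, so genotype and virus rest on the labels. Beyond the numbered titles and short description labels, nothing states which library came from which animal. The labels begin with different letters within WTSHAM and within WTCKD + RNLS. All KOCKD labels begin with s and all KOCKD + RNLS labels with WM, so label letters and virus cannot be told apart in the knockout comparison. The meaning of the labels is not given. The p-values therefore measure the spread between libraries, which may in part be technical.

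The libraries held 10480788 to 13424078 counted reads (median 12011453). All 10 cardiomyocyte markers were measured in each group. The hearts differed in atrial tissue. The summed level of 6 atrial markers was between 113 and 523 CPM (counts scaled to the library size) in 11 libraries, and 1210 CPM in replicate 3 of WTSHAM, 1310 and 2400 CPM in replicates 1 and 2 of WTCKD and 2750 CPM in replicate 3 of KOCKD. None of these 4 libraries was in a group with the virus. In bulk RNA, fewer cells of a type and less RNA per cell cannot be told apart.

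Per length of transcript the genes kept nearly the same order in all hearts. Ldhb stood highest, with a median of 1695 FPKM, the count per length and library total over the 15 libraries, above 99.9% of genes in the table. Pfkm followed with 442.2 FPKM, Slc2a4 with 214.9, Ldha with 139.9, Hk2 with 81.8 and Hk1 with 60.4. Pfkfb2 (15.6 FPKM), Slc2a1 (8.92), Pfkfb1 (5.04) and Pfkfb3 (1.9) made up the low end. Each gene lay above the next in 15 of 15 libraries, except that Pfkfb1 lay above Pfkfb3 in 14. The lengths behind these FPKM values differ from the exons annotated in GENCODE M1 for some genes. For Ldha they imply 5342 bases against 2982 annotated ones, and for Hk1 5399 against 8532. The place of these genes in the order above rests on the length used, and so do the fits with an offset for gene length given below, while the other comparisons between groups do not use it.

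**Figure D1:**
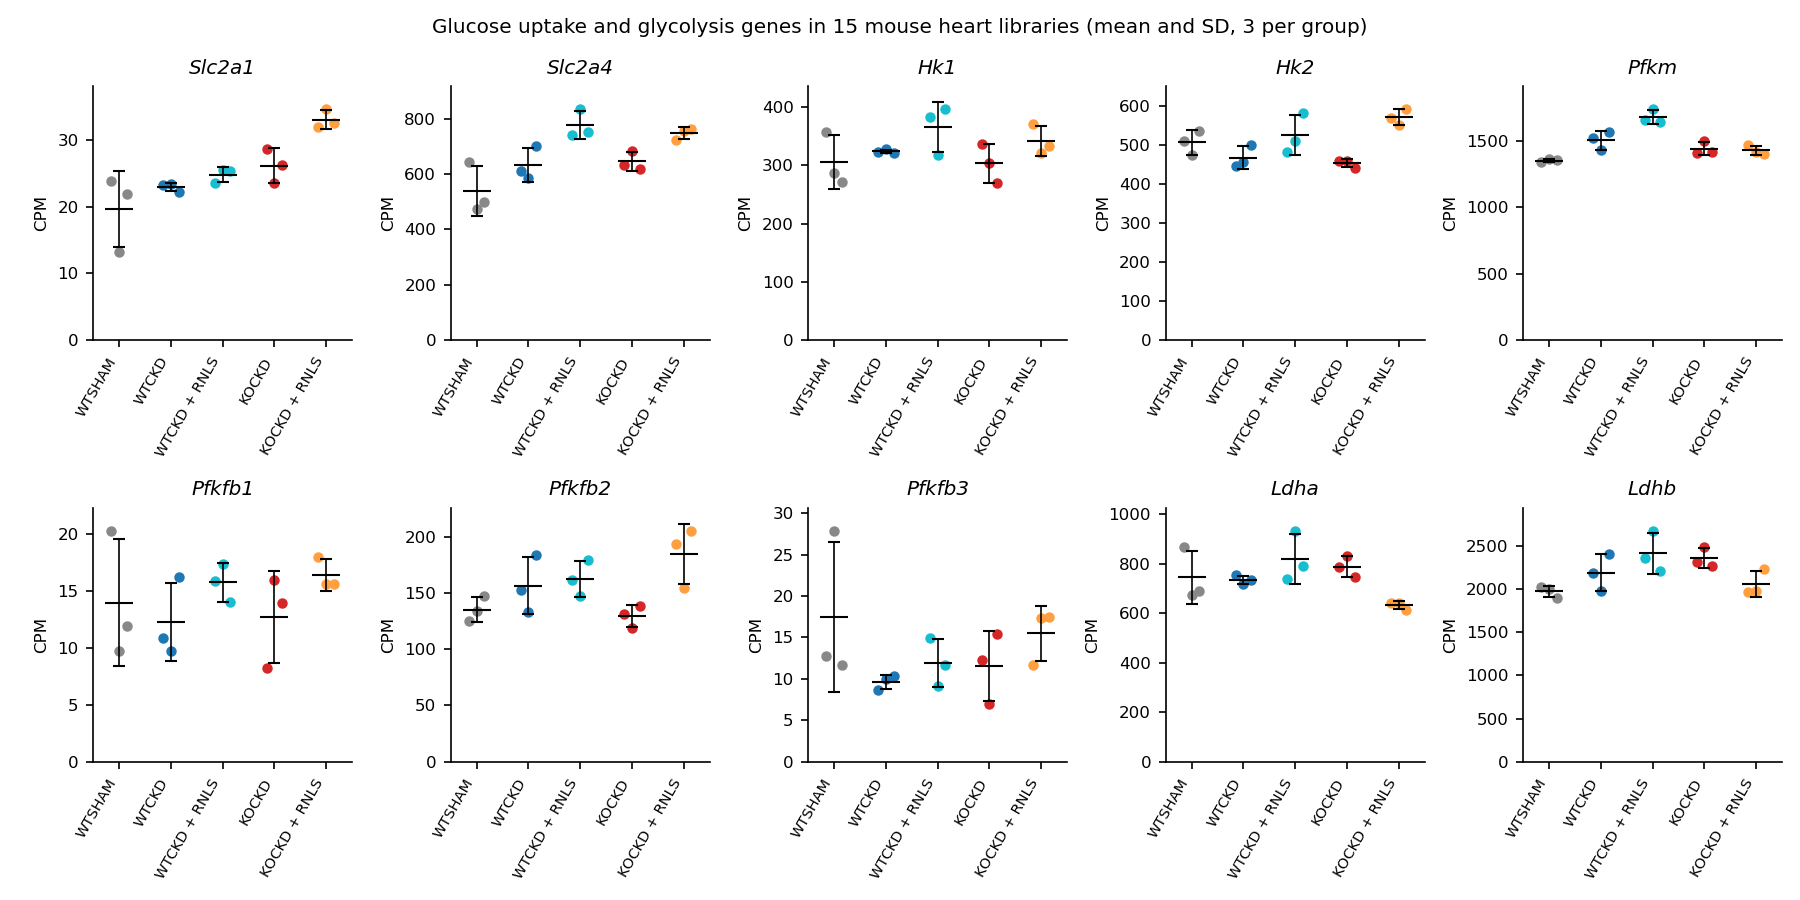
Level of the 10 genes in each of the 15 libraries, in CPM on axes that start at 0, by group, with the mean and SD of 3 libraries as black bars. Slc2a1 in KOCKD + RNLS lay above, and Ldha in KOCKD + RNLS below, each of the other 12 libraries, and Pfkm in WTCKD + RNLS lay above them. Of all genes, 5.05% had KOCKD + RNLS and 1.67% had WTCKD + RNLS apart from the other 12 libraries in either direction.

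Promoter sequence is shown for Hk2, Pfkfb2 and Ldha because these are the members that passed the test after RNLS in the knockout, described below. RefSeq sequence (GRCm38.p6) from 250 bases before to 50 bases after a transcription start was at hand for 9 of the 10 genes, in 20 windows, and not for Slc2a4. Searched on both strands, the E-box CACGTG, which clock and MYC family proteins bind, was in 4 of these windows, of Pfkm, Pfkfb2, Pfkfb3 and Ldha, against 7.15% of all 32851 promoter windows. The shorter ACGTG, the core of the hypoxia response element and part of every such E-box, was in 10 windows of 7 genes, against 19.6% of all windows. The GC box GGGCGG was in 7 windows of 6 genes, against 35.7%. Windows of the same gene can overlap, and a match describes the letters and no binding. Capitals mark ACGTG on either strand (CACGT is the same motif read from the other strand), and each stretch is written 5′ to 3′ on the strand of the gene and ends at the base before the start.
Hk2, 250 bases, chr6:82774455-82774704, minus strand: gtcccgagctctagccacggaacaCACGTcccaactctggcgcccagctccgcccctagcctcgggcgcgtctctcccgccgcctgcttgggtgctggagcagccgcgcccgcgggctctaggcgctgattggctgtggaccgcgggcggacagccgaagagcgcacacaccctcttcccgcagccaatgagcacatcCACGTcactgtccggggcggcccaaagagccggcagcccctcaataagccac
Pfkfb2, 30 bases, chr1:130715822-130715851, minus strand: aagcgcccCACGTGactcgccccaaccccc
Ldha, 250 bases, chr7:46845554-46845803, plus strand: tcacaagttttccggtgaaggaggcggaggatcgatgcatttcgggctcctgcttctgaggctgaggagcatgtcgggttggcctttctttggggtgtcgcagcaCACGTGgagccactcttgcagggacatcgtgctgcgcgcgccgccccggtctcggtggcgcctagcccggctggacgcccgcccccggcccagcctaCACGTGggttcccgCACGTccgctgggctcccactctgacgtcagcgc
The Ldha window shown held 2 E-boxes and another ACGTG between them and the start. The Pfkfb2 window shown held 1 E-box, and the Hk2 window 2 copies of ACGTG outside an E-box. For Ldha and Pfkfb2 the windows shown are those with an E-box. The other Ldha window (chr7:46846832-46847131) and the Pfkfb2 window at chr1:130715999-130716298 held 0 copies of each motif. The remaining Pfkfb2 window (chr1:130714527-130714826) held 1 ACGTG and 0 E-boxes. Hk2 and Pfkfb2 rose and Ldha fell in the same comparison, so in the windows shown ACGTG was found with either direction.

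These comparisons were tested with edgeR's quasi-likelihood test, adjusted over all 13021 genes by Benjamini-Hochberg, and a gene was called at an adjusted p under 0.05. They asked whether the genes differed with CKD, with the virus in each genotype, between the genotypes, with the virus over both genotypes, and whether the effect of the virus differed between the genotypes. With CKD edgeR called 0 of the 10 genes, where 2.3% of all genes were called, and 3 had an unadjusted p under 0.05 (17.6% of all genes did). DESeq2 also called 0 of the 10, and 584 of all genes. RNLS in wild type mice called 0 of 10 by edgeR, where edgeR called 4.47% of all genes, and 2 had an unadjusted p under 0.05 (20.2% of all genes). DESeq2 called 0 of 10 there, and 894 of all genes. All 10 were higher after RNLS in wild type, with a median log2 fold change of 0.16 against 0.012 for all genes. RNLS in the knockout called 3 of 10, with Hk2 and Pfkfb2 higher and Ldha lower, where 16.1% of all genes were called, 9.05% higher and 7.04% lower. At an unadjusted p under 0.05 there were 5 (31.6% of all genes). The median over the 10 genes was 0.27 there, against -0.009 for all genes. The genotype comparison, KOCKD against WTCKD, called 0 of 10 by edgeR and by DESeq2, and 1 had an unadjusted p under 0.05 (10.1% of all genes). In that comparison edgeR called 0 of all genes, with 1318 at an unadjusted p under 0.05, and DESeq2 called 9. The difference of the RNLS effect between genotypes called 0 of 10 by edgeR and 1, Ldha, by DESeq2, and 3 had an unadjusted p under 0.05 (17.6% of all genes). Groups did not overlap for 2 genes with CKD, 3 with RNLS in wild type, 6 with RNLS in the knockout and 1 between genotypes, where the shares of all genes were 22.5%, 21.2%, 40.6% and 19.3%.

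**Figure D2:**
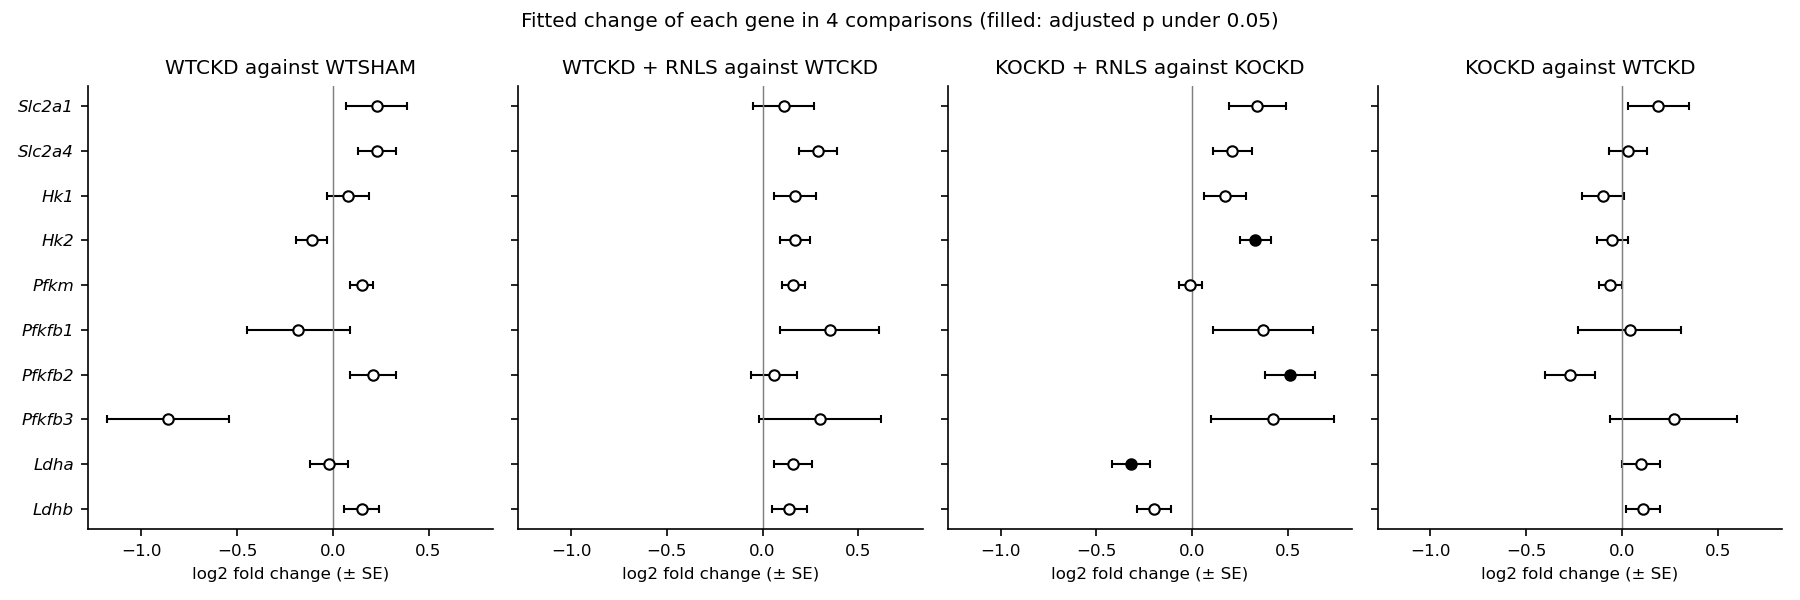
Log2 fold change of each gene (horizontal axis, bars ± SE from edgeR's fit) in 4 comparisons, each panel naming the group compared first and its reference. Filled points passed an adjusted p under 0.05. They are Hk2, Pfkfb2 and Ldha with RNLS in the knockout, and in wild type all 10 points lay above 0 and none was filled.

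Slc2a4 (chr11:69756045-69761690, minus strand, mm9) rose with RNLS in the mean over both genotypes. Its level was 611.8, 585.6 and 702.6 CPM in WTCKD and 741.8, 834.2 and 752.9 CPM in WTCKD + RNLS. In the knockout it was 633.4, 684.7 and 618.9 CPM with vector and 722.8, 755.3 and 763.8 CPM with the virus. Every library with the virus lay above every CKD library with vector, in both genotypes. The mean effect over the genotypes was a log2 fold change of 0.25 (SE 0.07, 1.19-fold, adjusted p = 0.026, edgeR), in a comparison that called 18% of all genes, 10.7% as higher, and where 32.3% had an unadjusted p under 0.05. Within a genotype the change did not pass, with 0.29 in wild type (SE 0.10, adjusted p = 0.124, edgeR) and 0.21 in the knockout (SE 0.10, adjusted p = 0.175, edgeR). The mean effect stayed between 0.22 and 0.29 when each library was left out in turn, but it was called in 6 of 12 such fits, and missed without replicate 1 or 2 of WTCKD, 1 or 3 of KOCKD, or 2 or 3 of KOCKD + RNLS (adjusted p 0.0556 to 0.0709, edgeR). It was 0.28 and called with gene length offsets (adjusted p = 0.0153, edgeR), and without the 4 libraries with the most atrial RNA it was 0.17 and not called (adjusted p = 0.353, edgeR).

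In sham hearts Slc2a4 was at 643.3 CPM in replicate 1 and at 475.0 and 499.0 CPM in the others. Against these, WTCKD was higher by 0.23 on the log2 scale (SE 0.10, adjusted p = 0.256, edgeR), and the groups overlapped through that first sham library. Without it the difference was 0.38 and passed (adjusted p = 0.0333, edgeR). Of the 6 fits that each left out a library, this was the only 1 with a call (0.15 to 0.38, adjusted p 0.0333 to 0.569, edgeR).

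Slc2a1 (chr4:118781316-118809935, plus strand, mm9) was low and highest in KOCKD + RNLS. There it was 31.9, 34.6 and 32.5 CPM, above each of the other 12 libraries, of which the nearest was at 28.7 CPM. In KOCKD it was 28.7, 23.5 and 26.2 CPM. Of all genes, 5.05% had the KOCKD + RNLS libraries apart from the other 12 in either direction. The difference in the knockout was 0.34 on the log2 scale (SE 0.15) and did not pass (adjusted p = 0.143, edgeR), although it did with only the 6 libraries of the comparison in the fit (adjusted p = 0.0239, edgeR). In wild type it was 23.2, 23.4 and 22.2 CPM with vector and 23.5, 25.5 and 25.3 CPM with the virus, a difference of 0.11 (SE 0.16). Replicate 2 of WTSHAM held the lowest level, 13.2 CPM.

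The ratio of Slc2a1 to Slc2a4, as FPKM, described the balance of the transporters. It was 0.0361 to 0.0397 in WTCKD + RNLS and 0.0502 to 0.0539 in KOCKD + RNLS, 2 groups that did not overlap. In WTCKD it was 0.0372 to 0.0471, in KOCKD 0.0404 to 0.0534 and in WTSHAM 0.0326 to 0.0516. The 2 groups with the virus were not a pair compared in the tests, and in each pair that was, the ratios overlapped. GLUT4 transcript was more abundant than GLUT1 transcript, as FPKM, in each heart.

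Hk2 (chr6:82675019-82724448, minus strand, mm9), which codes for the insulin-regulated hexokinase of muscle, rose with RNLS in the knockout. Its level was 460.0, 458.8 and 441.7 CPM in KOCKD and 569.8, 551.9 and 592.9 CPM in KOCKD + RNLS. The lowest library with the virus stood above the highest with vector, and both groups were tight. The log2 fold change was 0.33 (SE 0.08, 1.26-fold, adjusted p = 0.0126, edgeR). It was called in 6 of 6 fits that left out a library, at 0.31 to 0.36 (adjusted p 0.031 to 0.0499, edgeR). The call was lost with gene length offsets (0.18, adjusted p = 0.159, edgeR) and without the 4 libraries with the most atrial RNA (0.33, adjusted p = 0.0656, edgeR). In wild type Hk2 was 447.6, 457.2 and 501.0 CPM with vector and 483.9, 512.1 and 582.8 CPM with the virus, groups that overlapped, and the difference of 0.17 (SE 0.08) did not pass (adjusted p = 0.252, edgeR). The mean effect over both genotypes was 0.25 (SE 0.06, adjusted p = 0.00673, edgeR) and was called in 12 of 12 fits that left out a library, but not without those 4 libraries (0.20, adjusted p = 0.176, edgeR). In sham hearts Hk2 was 511.7, 474.1 and 536.4 CPM, and WTCKD was lower by 0.11 on the log2 scale (SE 0.08, adjusted p = 0.499, edgeR).

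Hk1 (chr10:61731603-61842656, minus strand, mm9) codes for the hexokinase found in most tissues and bound to mitochondria. It ranged from 269.6 to 396.8 CPM over the 15 libraries, and the groups overlapped in all 4 pairs compared. Its difference was 0.17 with RNLS in wild type (SE 0.11, adjusted p = 0.422, edgeR) and also 0.17 in the knockout (SE 0.11, adjusted p = 0.312, edgeR). The mean effect, 0.17 (SE 0.08), was not called (adjusted p = 0.143, edgeR), and it was called without replicate 2 of WTCKD + RNLS (0.21, adjusted p = 0.0465, edgeR). The ratio of Hk1 to Hk2, as FPKM, ran from 0.564 to 0.882 over the libraries, so that Hk2 stood above Hk1 in each heart. It was 0.679 to 0.814 in KOCKD and 0.625 to 0.725 in KOCKD + RNLS.

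Pfkm (chr15:97923020-97962878, plus strand, mm9), the muscle phosphofructokinase, varied least, from 1339.7 to 1736.1 CPM. In sham hearts it was 1339.7, 1358.4 and 1351.7 CPM, below each of the other 12 libraries, as was true of 5.14% of all genes in either direction. In WTCKD it was 1516.1, 1426.3 and 1562.0 CPM, and in WTCKD + RNLS 1657.3, 1736.1 and 1639.5 CPM. The last group lay above each of the other 12 libraries (1.67% of all genes had this group apart in either direction). The steps between the groups were 0.15 with CKD (SE 0.06, adjusted p = 0.204, edgeR) and 0.16 with RNLS (SE 0.06, adjusted p = 0.156, edgeR), and neither passed. In the knockout Pfkm was 1407.4, 1494.1 and 1411.2 CPM with vector and 1466.7, 1413.9 and 1402.1 CPM with the virus, a difference of -0.01 (SE 0.06). The difference of the RNLS effect between genotypes, -0.17 (SE 0.09), did not pass (adjusted p = 0.318, edgeR).

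Pfkfb2 (chr1:132585620-132625830, minus strand, mm9), the heart form of the enzyme that makes fructose 2,6-bisphosphate, rose most with RNLS in the knockout among the called members. It was 131.2, 118.6 and 138.3 CPM in KOCKD and 193.2, 154.7 and 205.3 CPM in KOCKD + RNLS. The groups did not overlap, but replicate 2 of KOCKD + RNLS was nearer to the vector group than the others. The log2 fold change was 0.51 (SE 0.13, 1.42-fold, adjusted p = 0.0139, edgeR). Under gene length offsets it was 0.23 and not called (adjusted p = 0.238, edgeR). It was called in 3 of 6 fits that left out a library and missed without replicate 2 of KOCKD (0.46, adjusted p = 0.066), replicate 1 of KOCKD + RNLS (0.48, adjusted p = 0.0505) or replicate 3 of KOCKD + RNLS (0.43, adjusted p = 0.0599, edgeR). In wild type it was 152.8, 133.1 and 183.2 CPM with vector and 161.1, 146.9 and 179.3 CPM with the virus, a difference of 0.06 (SE 0.12, adjusted p = 0.856, edgeR). The mean effect of 0.28 passed (SE 0.09, adjusted p = 0.036, edgeR) and was called in 4 of 12 fits that left out a library. It was missed without replicate 1 or 2 of WTCKD, 1 or 3 of WTCKD + RNLS, 1 or 2 of KOCKD, or 1 or 3 of KOCKD + RNLS (adjusted p 0.0603 to 0.0941, edgeR), with gene length offsets (0.11, adjusted p = 0.383, edgeR), and without the 4 libraries with the most atrial RNA (0.20, adjusted p = 0.301, edgeR). The effect was larger in the knockout by 0.46 (SE 0.18, unadjusted p = 0.0202), which did not pass (adjusted p = 0.207, edgeR). KOCKD was also lower than WTCKD, by 0.27 on the log2 scale (unadjusted p = 0.0443, adjusted p = 0.487, edgeR), and the KOCKD libraries are common to this contrast and to the RNLS effect in the knockout.

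Pfkfb1 (chrX:147022772-147078421, plus strand, mm9), the form of liver and skeletal muscle, and Pfkfb3 (chr2:11393057-11423728, minus strand, mm9), the inducible form, had the lowest levels per length of the 10 genes and lay above 61.9% and 46.2% of all genes in the table, as FPKM. Pfkfb1 ran from 8.22 to 20.3 CPM and had 94 to 244 reads in a library. Its differences with RNLS, 0.35 in wild type (SE 0.26) and 0.37 in the knockout (SE 0.26), were within the spread of the libraries (adjusted p 0.503 and 0.363, edgeR). Pfkfb3 ran from 6.99 to 27.9 CPM, on 75 to 371 reads, and the highest value was that of replicate 2 of WTSHAM. The other sham libraries had 12.8 and 11.7 CPM and WTCKD had 8.71 to 10.3 CPM, below all 3. The difference with CKD was -0.86 on the log2 scale (SE 0.32, unadjusted p = 0.016) and did not pass (adjusted p = 0.171, edgeR). Exons of Pfkfb1 share 123 bases with Apex2, and those of Pfkfb2 share 154 bases with Yod1, both on the opposite strand. The strand option of the counting was not given in the sources used here, so reads of these stretches may belong to either gene.

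Ldha (chr7:54096845-54110997, plus strand, mm9), the subunit that favours lactate formation, fell with RNLS in the knockout. It was 784.4, 832.3 and 746.5 CPM in KOCKD and 640.4, 640.8 and 613.7 CPM in KOCKD + RNLS. The latter group lay below each of the other 12 libraries, of which the nearest, a sham heart, was at 673.6 CPM (5.05% of all genes had this group apart in either direction). The log2 fold change was -0.32 (SE 0.10, 0.802-fold, adjusted p = 0.04, edgeR). The call was close to the threshold, and none of the 6 fits that left out a library kept it (-0.35 to -0.27, adjusted p 0.0621 to 0.156, edgeR). It was also missed without the filter on low counts (adjusted p = 0.0546), with the replicate number as a block (adjusted p = 0.0514) and without the 4 libraries with the most atrial RNA (adjusted p = 0.0972, edgeR). In wild type Ldha was 751.6, 719.2 and 733.8 CPM with vector and 737.0, 932.8 and 788.0 CPM with the virus, a difference of 0.16 (SE 0.10, adjusted p = 0.412, edgeR) in the other direction. The effects of RNLS in the 2 genotypes differed by -0.48 (SE 0.14, unadjusted p = 0.00382), which edgeR did not call (adjusted p = 0.14) and DESeq2 did (-0.48, adjusted p = 0.0367). For this difference edgeR called 0 of all genes, with 2288 at an unadjusted p under 0.05, and DESeq2 called 363. The mouse genome holds processed copies of Ldha, and how reads that match several places were counted was not given in the sources used here.

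Ldhb (chr6:142438769-142456477, minus strand, mm9), the subunit of the lactate-using heart enzyme, was the most abundant of the 10. It was 2313.4, 2488.6 and 2264.8 CPM in KOCKD and 1962.3, 1971.7 and 2235.5 CPM in KOCKD + RNLS. The groups did not overlap, by a margin set by replicate 3 of KOCKD + RNLS. The difference of -0.20 (SE 0.09) did not pass (adjusted p = 0.14, edgeR). In wild type it was 2189.6, 1978.7 and 2401.1 CPM with vector and 2357.8, 2676.0 and 2204.7 CPM with the virus, a difference of 0.14 (SE 0.09, adjusted p = 0.41, edgeR). The ratio of Ldha to Ldhb, as FPKM, was 0.0805 to 0.0828 in KOCKD and 0.0797, 0.0793 and 0.067 in KOCKD + RNLS. These groups did not overlap, but replicates 1 and 2 of KOCKD + RNLS lay close to KOCKD. In wild type it was 0.0746 to 0.0887 with vector and 0.0763 to 0.0873 with the virus, and in sham hearts 0.0823 to 0.105. These ratios rest on the lengths behind the FPKM values and compare groups, not the amounts of the proteins.

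Gene length moved with the knockout comparison. Sorted by the length that the FPKM values imply, the shortest 25% of all genes had a median difference of -0.24 with RNLS in the knockout on the log2 scale, and the longest 25% one of 0.24. In wild type these medians were 0.01 and 0.05. Of the 3 members called there, Hk2 (6003 bases) and Pfkfb2 (9788 bases) were among the longest 25% and Ldha, by its implied 5342 bases, next to them in the third 25%, and Ldhb (1304 bases), which was not called, was among the shortest. With an offset for gene length in each library, Hk2 was at 0.18 (SE 0.07, adjusted p = 0.159, edgeR) and Pfkfb2 at 0.23 (SE 0.11, adjusted p = 0.238, edgeR), and neither was called. Ldhb was at 0.04 (SE 0.07), in the other direction. Ldha was at -0.44 (SE 0.12) and called (adjusted p = 0.042, edgeR) when given the 5342 bases that the FPKM imply. With the 10 members at their annotated lengths, a choice made after seeing the data, Ldha (2982 bases) was at -0.27 (SE 0.09) and not called (adjusted p = 0.0944, edgeR), Hk2 was at 0.19 and Pfkfb2 at 0.22 (adjusted p 0.155 and 0.257, edgeR). The call of Ldha under the offsets therefore rests on the length it is given. Over both genotypes, Slc2a4 and Hk2 (0.17, adjusted p = 0.042, edgeR) stayed called with the offsets and Pfkfb2 did not, with either set of lengths. What part the length trend had in these results was not tested further.

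**Figure D3:**
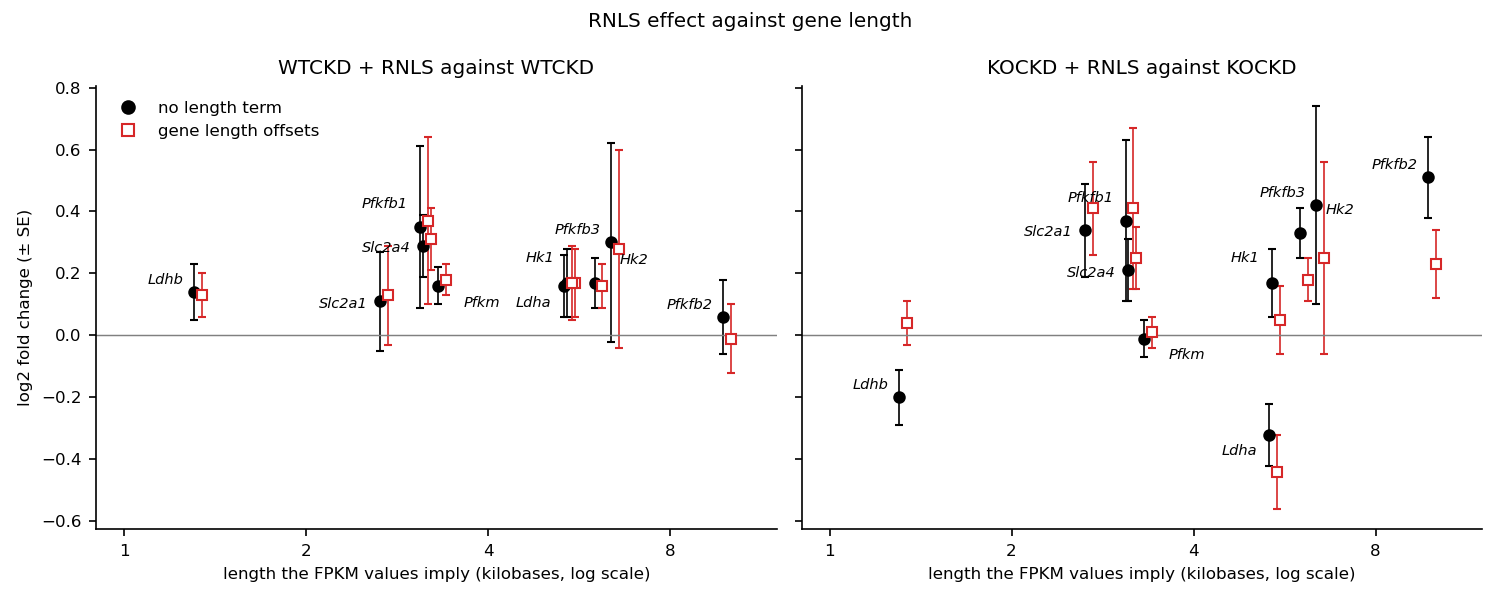
Log2 fold change with RNLS in wild type (left) and knockout (right) against the length in kilobases that the FPKM values imply (log axis), for the 10 genes, without a length term (filled circles) and with gene length offsets (open squares, drawn slightly to the right), bars ± SE. In the knockout the offsets brought Hk2 from 0.33 to 0.18, Pfkfb2 from 0.51 to 0.23 and Ldhb from -0.20 to 0.04, while Ldha, drawn at 5342 bases, went from -0.32 to -0.44.

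Other features of the hearts were also compared with and without the virus. The counts of called genes below stand against 4.47% of all genes called by edgeR in wild type. In the knockout the share was 16.1%, with 9.05% higher and 7.04% lower. The summed level of 15 clock genes was 558.3 to 613.4 CPM in WTCKD and 921.5 to 1149 CPM in WTCKD + RNLS, and 567.4 to 940.5 CPM in KOCKD and 992.4 to 1198 CPM in KOCKD + RNLS. With RNLS 8 of 15 clock genes rose and 3 fell in wild type, and 8 rose and 2 fell in the knockout. The time of day of the dissection was not given in the sources used here. Endothelial markers summed to 3828 to 4465 CPM in WTCKD and 3211 to 3588 CPM in WTCKD + RNLS, and to 4105 to 4838 CPM in KOCKD and 3408 to 3462 CPM in KOCKD + RNLS, with 3 of 10 markers called lower in each. The cardiomyocyte markers summed to 105511 to 121902 CPM in WTCKD, 124709 to 139398 CPM in WTCKD + RNLS, 108889 to 119926 CPM in KOCKD and 119251 to 121687 CPM in KOCKD + RNLS. In the knockout 3 of the 10 were higher and 7 lower (median -0.08 on the log2 scale), and Myh6, which carries much of the sum (31374.7 CPM in KOCKD and 45111.4 CPM in KOCKD + RNLS on average), and Ryr2 were called higher. In wild type 9 were higher and 1 lower (median 0.12), none was called by edgeR, and 3 had an unadjusted p under 0.05. All 5 atrial markers tested were lower with the virus in each genotype, and Sln (-9.48), Myl7 (-8.95) and Myl4 (-7.38) were called in the knockout (SE 2.15 to 3.02, adjusted p 0.0289 to 0.043, edgeR) and over both genotypes. The spread was wide, with Myl7 at 287.7 CPM in KOCKD and an SD of 448.8. The summed atrial level was 487, 166 and 2750 CPM in KOCKD and 192, 330 and 158 CPM in KOCKD + RNLS. These groups overlapped, and replicate 3 of KOCKD stood far above the rest. Of 8 fibroblast markers 2 fell in wild type and 1 in the knockout, and of 8 macrophage markers 0 and 1. A single call among 8 markers in the knockout was near the share of all genes called there. None of the erythrocyte, adipocyte, skeletal muscle, or smooth muscle and pericyte markers tested (4, 5, 4 and 6) was called with RNLS by edgeR. In this order 4, 2, 1 and 0 had an unadjusted p under 0.05 in wild type and 0, 0, 0 and 1 in the knockout. All 4 erythrocyte markers were higher in wild type (median 2.7 on the log2 scale), while 2 were higher and 2 lower in the knockout (median -0.05). All 5 adipocyte markers were lower in each genotype (medians -3.32 and -1.94), on summed levels of at most 18.4 CPM in WTCKD. Slc2a1 is also expressed in endothelial cells. The part of these shifts in the results was not tested.

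Leaving out the 4 libraries with the most atrial RNA, a choice made after seeing the data, left Hk2 in the knockout at 0.33 and Ldha at -0.35, neither of them called (adjusted p 0.0656 and 0.0972, edgeR), and 1 of 10 genes, Pfkfb2, called. Over both genotypes Slc2a4 was then at 0.17, Hk2 at 0.20 and Pfkfb2 at 0.20 (adjusted p 0.353, 0.176 and 0.301, edgeR), and 0 were called by edgeR. These fits had 1 library of WTCKD and 2 of KOCKD, the lone library being taken to vary like the other groups.

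The rest of the pathway was followed in lists written by hand, whose counts stand against 2.3% of all genes called with CKD, 4.47% with RNLS in wild type and 16.1% with RNLS in the knockout. Of 15 other glucose transporters and hexokinases, 10 were tested. With CKD Slc2a8, an intracellular transporter, rose from 14.7 ± 0.621 to 22.5 ± 2.24 CPM (SD, n = 3; log2 fold change 0.61, SE 0.12, adjusted p = 0.0139, edgeR), and with RNLS over both genotypes Slc2a10 fell by 0.75 on the log2 scale (SE 0.24, adjusted p = 0.0385, edgeR). The list gave 0 calls with RNLS within either genotype by edgeR, with 1 gene at an unadjusted p under 0.05 in each. With gene length offsets it also gave 0 calls over both genotypes by edgeR, so the call of Slc2a10 was lost.

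Of 22 other glycolytic enzymes, 19 were tested. In the knockout 3 fell with RNLS and none rose, a share near the 16.1% of all genes called. Eno3, the muscle enolase, fell from 1504 ± 156.9 to 1034 ± 144.3 CPM (SD, n = 3; -0.54, SE 0.12, adjusted p = 0.00741, edgeR), Pfkl, the liver phosphofructokinase, by 0.34 (adjusted p = 0.0489, edgeR) and Eno1 by 0.27 (adjusted p = 0.0417, edgeR). The median over the list was -0.10 there and 0.12 in wild type, where none was called by edgeR and 2 had an unadjusted p under 0.05. With gene length offsets Eno3 stayed called in the knockout (-0.67, adjusted p = 0.0106, edgeR), and Pfkl (-0.39, adjusted p = 0.0654, edgeR) and Eno1 (-0.13, adjusted p = 0.316, edgeR) did not. With CKD Gapdh rose by 0.56 (SE 0.13, adjusted p = 0.0299, edgeR), from 222.4 ± 9.36 to 328.1 ± 26.4 CPM, and Fbp2, a muscle enzyme of the reverse path, fell by 0.93 (SE 0.18, adjusted p = 0.0109, edgeR). Pfkfb4, the remaining PFKFB gene, fell by 0.56 with RNLS over both genotypes (SE 0.19, adjusted p = 0.0482, edgeR), where Pfkfb2 rose.

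Genes that control glucose uptake included larger changes. Of 23 genes of insulin and AMPK signalling, 1 rose and 2 fell with CKD, 1 rose and 2 fell with RNLS in wild type, and 8 rose and 1 fell with RNLS in the knockout, where the shares of all genes called were 2.3%, 4.47% and 16.1% (9.05% higher in the knockout). Txnip, an inhibitor of glucose uptake, was 415.4, 796.6 and 477.9 CPM in WTSHAM and 860.5, 1096 and 1390 CPM in WTCKD. With the virus it was 556.2, 407.2 and 429.4 CPM in wild type and 454.7, 625.7 and 476.0 CPM in the knockout, against 1205, 1004 and 1264 CPM in KOCKD. It rose with CKD (0.99, SE 0.22, adjusted p = 0.0258, edgeR) and fell with RNLS in wild type (-1.26, SE 0.22, adjusted p = 0.00518, edgeR) and in the knockout (-1.16, SE 0.22, adjusted p = 0.00389, edgeR). WTCKD was common to the first 2 of these contrasts, so its level enters both in opposite directions.

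Pik3r1, the regulatory subunit of phosphoinositide 3-kinase, had the opposite order, with 157.4 ± 30.8 CPM in sham hearts, 91.0 ± 3.1 in WTCKD and 204.7 ± 35.5 in WTCKD + RNLS (SD, n = 3). It fell by 0.79 with CKD (SE 0.14, adjusted p = 0.00608, edgeR) and rose by 1.17 with RNLS in wild type (SE 0.14, adjusted p = 0.000416, edgeR) and by 0.71 in the knockout (SE 0.14, adjusted p = 0.0049, edgeR). WTCKD was again common to the contrasts of CKD and of RNLS in wild type. Lnpep, a protease stored in the same vesicles as GLUT4, fell by 0.74 with CKD (adjusted p = 0.0175, edgeR) and rose by 0.82 with RNLS in the knockout (adjusted p = 0.00389, edgeR). The insulin receptor substrates went apart. Irs1 fell by 0.88 in wild type (adjusted p = 0.00278, edgeR), and Irs2 rose by 1.03 in the knockout (adjusted p = 0.0225, edgeR). With RNLS in the knockout the AMPK subunits Prkaa2 (0.51) and Prkab2 (0.43), the insulin receptor Insr (0.39), Igf1r (0.47) and the kinase Pdpk1 (0.28) also rose (adjusted p 0.00676 to 0.0381, edgeR). The median over the list was 0.20 there and -0.04 in wild type. With gene length offsets, 1 of the 8 genes that rose stayed called, Lnpep (0.63, adjusted p = 0.0124, edgeR). Pik3r1 was then at 0.39, Irs2 at 0.84, Prkaa2 at 0.27 and Insr at 0.12 (adjusted p 0.0903 to 0.399, edgeR), while Txnip stayed called at -1.09 (adjusted p = 0.0126, edgeR) and Irs1 was called as lower (-0.59, adjusted p = 0.0254, edgeR).

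**Figure D4:**
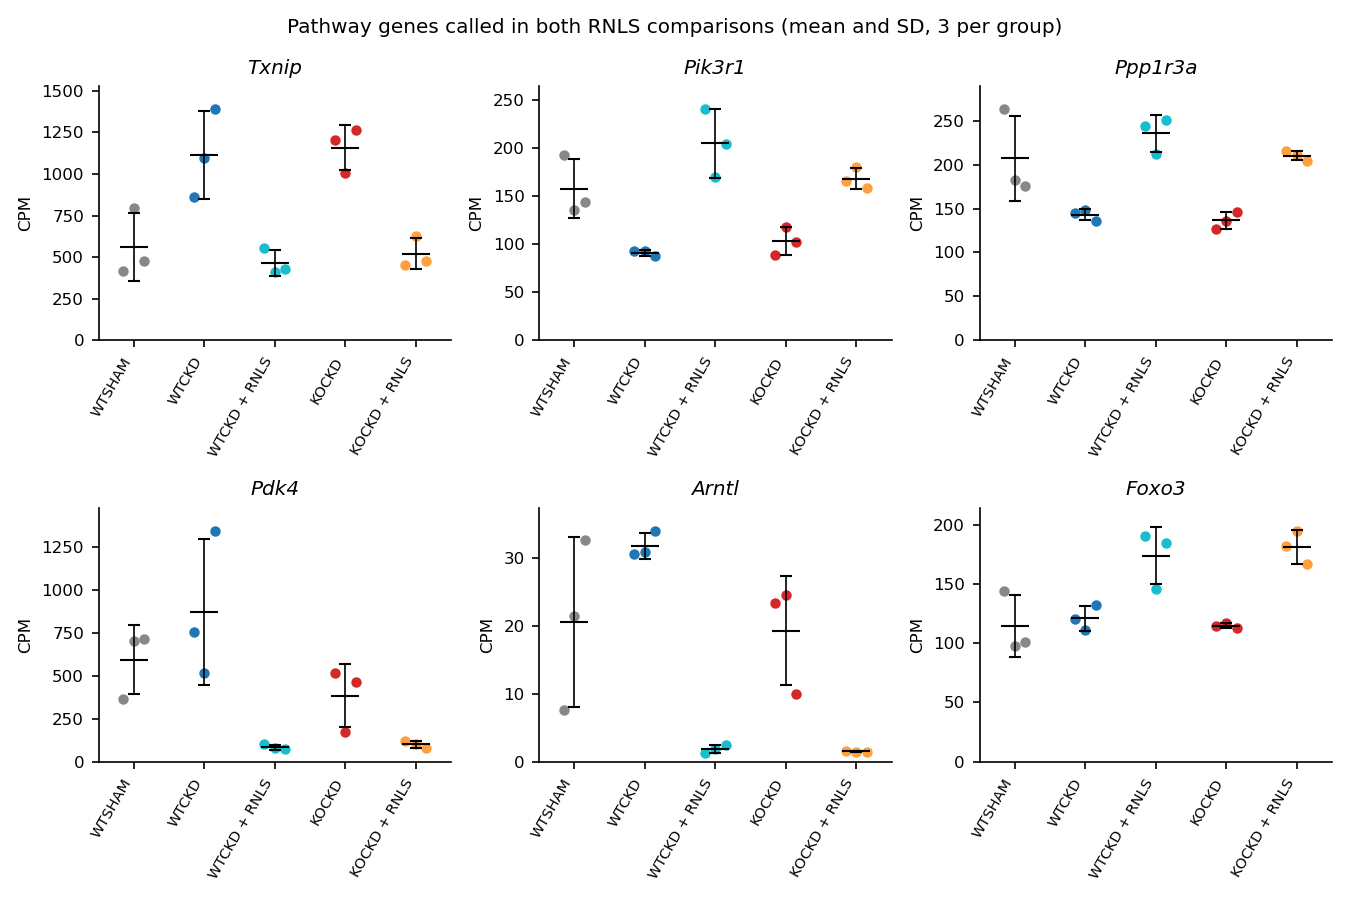
CPM by library and group for the 6 genes of the pathway lists that were called with RNLS in both genotypes, with the mean and SD of 3 libraries. Txnip, Pdk4 and Arntl were lower, and Pik3r1, Ppp1r3a and Foxo3 higher, in each library with the virus than in the CKD libraries with vector of the same genotype.

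Storage and later use of glucose were also followed. Of 18 glycogen genes, Ppp1r3a, which targets protein phosphatase 1 to glycogen in muscle, fell by 0.53 with CKD (SE 0.12, adjusted p = 0.0327, edgeR) and rose with RNLS by 0.72 in wild type (SE 0.12, adjusted p = 0.00487, edgeR) and 0.62 in the knockout (SE 0.12, adjusted p = 0.00477, edgeR). Phkg1, the catalytic subunit of muscle phosphorylase kinase, fell by 0.55 in wild type, and Phkb, another subunit of that kinase, rose by 0.30 in the knockout, as did Epm2a by 0.38 (adjusted p 0.0198 to 0.0338, edgeR). Over both genotypes Ugp2, which makes the glucose donor for glycogen, fell by 0.30 (adjusted p = 0.0335, edgeR). This call was lost with gene length offsets, where 0 of the list were called as lower over both genotypes by edgeR. With gene length offsets in the knockout Epm2a stayed called (0.66, adjusted p = 0.00602, edgeR), and Ppp1r3a (0.43, adjusted p = 0.0616, edgeR) and Phkb (0.03, adjusted p = 0.909, edgeR) did not. With CKD, 0 of the 18 genes were called by edgeR under these offsets, so the call of Ppp1r3a was lost there too. WTCKD was common to the CKD contrast and to RNLS in wild type, so its level enters both in opposite directions.

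Of 19 genes of lactate and pyruvate handling, Pdk4, the kinase that shuts pyruvate dehydrogenase when fat is burned, showed the largest difference. It was 752.8, 516.0 and 1347 CPM in WTCKD and 102.2, 77.2 and 76.6 CPM in WTCKD + RNLS, and 515.3, 173.4 and 464.7 CPM in KOCKD and 118.8, 105.2 and 78.1 CPM in KOCKD + RNLS. The log2 fold changes were -3.35 (SE 0.40, adjusted p = 0.00041, edgeR) and -1.93 (SE 0.38, adjusted p = 0.00477, edgeR). The vector groups varied widely, and replicate 2 of KOCKD lay close to the libraries with the virus. Pdk2 rose by 0.51 with CKD (adjusted p = 0.00202, edgeR). With RNLS in the knockout Mpc2, a subunit of the mitochondrial pyruvate carrier, fell by 0.43 and Bsg, the chaperone of the lactate transporters, by 0.37 (adjusted p 0.0399 and 0.0123, edgeR). With gene length offsets Pdk4 stayed called there (-1.92, adjusted p = 0.0121, edgeR), and Mpc2 (-0.09) and Bsg (-0.20) did not (adjusted p 0.552 and 0.13, edgeR). Over both genotypes the phosphatase Pdp1 (0.29), the lactate transporter Slc16a1 (0.26) and Pdha1 (0.15), a subunit of pyruvate dehydrogenase, rose (adjusted p 0.00602 to 0.0413, edgeR).

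Of 20 transcription factors and regulators that act on glycolytic genes, 1 rose with CKD (Klf15, 0.55, adjusted p = 0.0491, edgeR), 1 rose and 3 fell with RNLS in wild type, and 4 rose and 3 fell in the knockout. Arntl, Clock and Nr1d1 are also on the clock list. Arntl, a clock protein that binds the E-box, fell from 31.8 ± 1.96 to 1.88 ± 0.558 CPM in wild type and from 19.3 ± 8.07 to 1.51 ± 0.111 CPM in the knockout (SD, n = 3; -4.06 and -3.66, adjusted p 0.000329 and 0.000971, edgeR). Its partner Clock fell by 0.68 and Myc by 1.28 in wild type, and Foxo3 rose by 0.52 (adjusted p 0.0164 to 0.0345, edgeR). In the knockout Foxo3 (0.66), Mlxip (0.60), Epas1 (0.49), the hypoxia-inducible factor HIF-2α, and Mef2c (0.43) rose, and Egln3 (-1.25), a hydroxylase of those factors, and Nr1d1 (-1.13) fell (adjusted p 0.00244 to 0.0427, edgeR). With gene length offsets Arntl (-4.04), Egln3 (-1.21), Epas1 (0.44) and Foxo3 (0.47) stayed called (adjusted p 0.00124 to 0.0441, edgeR), and Mlxip (0.37), Nr1d1 (-1.06) and Mef2c (-0.01) did not (adjusted p 0.0668 to 0.968, edgeR).

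The genes whose log2 CPM followed the called members most closely over the 15 libraries are named as a description. The libraries share their groups, depth and any length trend. For Slc2a4 they were Asb8 and Bcl7b (Pearson's r 0.94 each) and Dcaf8 (0.93), for Hk2 Ank2 (0.95), Pcmtd1 (0.92) and Pcnx (0.92), for Pfkfb2 Tmem94 (0.92), Nat10 (0.90) and R3hdm1 (0.87), and for Ldha Arf1 (0.96), Ran (0.93) and Mrps12 (0.93). The 3 genes nearest to Hk2 are long (7267 to 30891 bases) and the 3 nearest to Ldha are short (1041 to 2308 bases), although Ldha itself was given 5342 bases. Between members the highest values were 0.71 for Hk2 with Pfkfb2 and for Pfkm with Ldhb and 0.69 for Slc2a1 with Slc2a4, and the lowest were -0.56 for Ldha with Pfkfb3 and -0.53 for Ldha with Pfkfb2.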

How the data were processed

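RNA-seq of 15 mouse hearts, 3 per group by the sample labels, was used. By the study's methods the authors made stranded mRNA libraries, sequenced on either of 2 platforms (which library on which was not given), used Trimmomatic for trimming, hisat2 for mapping to mm9 and htseq-count for counting. The submitters' processing notes name GRCm39 instead. The authors deposited raw counts per gene, and FPKM per library, which equal the counts divided by a fixed length per gene and the library total for 100% of genes. Each column was mapped to a sample (0 left over). Of 17447 genes 300 had no count.

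Counts were analysed with R 4.3.3, edgeR 4.0.16 (TMM factors 0.925 to 1.05, default filter at a count of 10 and a summed count of 15, quasi-likelihood fit of the group over all 15 libraries, Benjamini-Hochberg adjustment over 13021 genes) and limma 3.58.1, and tables and figures with Python 3.11.15, numpy 2.4.6, pandas 2.3.3 and matplotlib 3.10.9. CPM were computed with the TMM factors. The common biological coefficient of variation was 0.132. An exact test of 3 against 3 libraries could not go below p = 0.1. Alternatives were RLE size factors, no filter, a replicate block, a fit on the 6 or 12 libraries compared, DESeq2 1.42.0, gene length offsets (the trend of log counts with length, per library, and again with the members at annotated lengths), each library left out, and the study's rule of a fold change over 1.25 and an unadjusted p under 0.05. The code was tested on simulated data.

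The genes and the lists were chosen with earlier results of these data known. Named were all 10 members, each list gene called in a comparison (the 4 with the largest change where more than 6 were called, with the others added after their values were seen), the 3 genes most correlated with each called member, and markers and clock genes as counts and sums. Positions come from GENCODE M1 (mm9) and promoters from RefSeq (GRCm38.p6). Protein sequences and the RNLS gene were not analysed here, and 1 called list gene is not reported here.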

Additional observations from a re-analysis of the deposited data

How the results depend on the processing

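With 3 libraries a group, the members' effects of 0.25 to 0.51 lay near the threshold of the test, and Pfkfb1 and Pfkfb3 rest on at most 371 reads a library. Most results for single members kept their direction and side of the threshold (856 of 960 values under the alternatives). Most of these values belong to differences that were not called, which have no call to lose. The called results were 3 with RNLS in the knockout and 3 for the mean effect. Among the values of these called results alone a call was lost in 37, a number that does not stand against 960. With a library left out in turn, Ldha in the knockout was called in 0 of 6 fits and Hk2 in 6 of 6. The cause of the changes was not tested.

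Counts of called genes over the whole table depended on the setting. For CKD, 299 genes became 99 with only the libraries of the comparison, 584 with DESeq2 (36.1% of them higher against 26.1%), 1470 by the study's rule, 72 without the 4 atrial-rich libraries and 136 to 380 with a library left out. For RNLS in wild type, 582 became 380, 894, 1874, 47 and 209 to 761. For RNLS in the knockout, 2095 became 710 with gene length offsets, 709 with the members at annotated lengths in them, 1007 without the atrial-rich libraries and 862 to 1476 with a library left out. For genotype, 0 became 4 with RLE size factors, 5 without the filter, 2 with only the libraries of the comparison, 9 with DESeq2, 732 by the study's rule and 0 to 3 with a library left out. For the mean RNLS effect, 2342 became 592 without the atrial-rich libraries and 1665 to 3362 with a library left out. For the difference between genotypes, 0 became 363 with DESeq2, 1981 by the study's rule and 0 to 2 with a library left out.

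Of the 10 members, the study's rule called 1 with CKD, 0 for the mean RNLS effect and 3 for the difference, and DESeq2 called 1 (Ldha) for the difference. With RNLS in the knockout the study's rule called 3, which were Slc2a1, Hk2 and Pfkfb2. Ldha, at 0.802-fold, did not meet its fold change there. Leaving out a library gave 0 to 1 with CKD, 1 to 2 with RNLS in the knockout and 1 to 4 for the mean effect. RNLS in the knockout had 5 with only the libraries of the comparison (Slc2a4 added at adjusted p = 0.0304, edgeR), 1 with gene length offsets, 0 with the members at annotated lengths in them, and 1 without the atrial-rich libraries, and the mean effect had 0 without them.

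Replicate numbers did not pair the libraries. Same-numbered libraries had correlated deviations of -0.36 to 0.334 (median -0.037, 30 pairs) and others -0.334 to 0.39 (60 pairs). With the replicate number as a block, edgeR called 253, 522, 1909, 1, 2190 and 0 genes in the 6 comparisons, and 0, 0, 2, 0, 3 and 0 members. The block took away the call of Ldha in the knockout (-0.32, adjusted p = 0.0514, edgeR) and turned the difference between genotypes for Hk1 to 0.00.

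Changes of direction were among differences that were not called. With gene length offsets, Ldha with CKD was at 0.02, Pfkfb2 with RNLS in wild type at -0.01, Pfkm and Ldhb in the knockout at 0.01 and 0.04, Hk2 and Ldhb between genotypes at 0.03 and -0.03, Ldhb in the mean effect at 0.09 and Pfkfb3 in the difference at -0.03. With the members at annotated lengths in these offsets, Pfkfb2 in wild type was at -0.02, Hk1 and Pfkm in the knockout at -0.08 and 0.03, Slc2a4, Hk1, Hk2 and Ldhb between genotypes at 0.00, 0.02, 0.03 and 0.00, Ldhb in the mean effect at 0.07 and Pfkfb1 and Pfkfb3 in the difference at -0.04 each. Without the filter, Pfkm in the knockout and Hk1 in the difference were at 0.00, and with only the libraries of the comparison Hk1 in the difference was at 0.02. Without the atrial-rich libraries, Hk1, Hk2 and Pfkfb1 with CKD were at 0.00, 0.03 and 0.12, Pfkfb1 and Pfkfb2 with RNLS in wild type at -0.05 and -0.17, Slc2a4, Pfkfb1 and Pfkfb3 between genotypes at -0.09, -0.42 and -0.09, and Slc2a4 in the difference at 0.04. With a library left out, the following ran through 0. With CKD these were Pfkfb1 (-0.43 to 0.19) and Ldha (-0.08 to 0.11), with RNLS Pfkfb2 in wild type (-0.04 to 0.18), Pfkm in the knockout (-0.03 to 0.02) and Ldhb in the mean effect (-0.08 to 0.01). Between genotypes they were Slc2a4 (-0.03 to 0.11), Hk2 (-0.08 to 0.00) and Pfkfb1 (-0.16 to 0.30), and in the difference Hk1 (-0.08 to 0.08), Pfkfb1 (-0.23 to 0.22) and Pfkfb3 (-0.13 to 0.38).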
